A study of Mus musculus with 24 samples.

Results

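The loci examined here are those of 38 genes that encode integrins, hemidesmosome proteins, laminins, basement membrane collagens and proteoglycans, and matrix ligands of integrins. A region belonged to them when it overlapped the body of a listed protein-coding gene or the 20 kb on either side of it. This rule used no measured value, though the genes were listed with earlier results of these data known. All 38 genes were found in the annotation, and their windows held 677 of the 134385 open chromatin regions formed by merging the peaks of all 12 peak lists. The 5 skin lists alone gave 506 member regions of 98240, and the 7 culture lists gave 506 of 97078. In skin, 352 of the 506 member regions lay in a member gene body, 49 covered a start of a member gene and 28 covered the start of another coding gene that the window reached. The windows of Itga1 and Itga2, and those of Col4a1 and Col4a2, adjoin, so 11 of the 677 regions belonged to 2 members.

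ATAC-seq, which inserts adapters with Tn5 into DNA that nucleosomes leave exposed, mapped open chromatin in 24 samples from male CD1 mice. They formed 12 groups of 2 replicates, and the authors merged both replicates before calling peaks, so each group has 1 peak list, and values are given without replicate errors or tests. The study asked how SOX9, a transcription factor of hair follicle stem cells, changes chromatin when it is switched on in epidermal stem cells (EpdSCs). A list says that a peak passed the authors' threshold in a population of cells, so fewer cells with an open site and a less open site in each cell cannot be told apart.

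All skin groups carried the genotype K14rtTA; TRE-myc-Sox9, in which keratin 14 promoter activity drives a doxycycline (DOX) dependent activator, so that DOX switches on a MYC-tagged Sox9 transgene in basal keratinocytes. D0 came from back skin at postnatal day 21, and W1, W2 and W6 from postnatal days 28, 35 and 63, after 1, 2 and 6 weeks of DOX. W12 is labelled as grafted skin, which per the study's methods was neonatal skin placed on immunocompromised hosts, so that time and tissue source cannot be told apart for that list, and age moved with time in the others. Cells were sorted as negative for CD31, CD45, CD117, CD140a and CD34 and high for Ly6A and CD49f. CD49f is integrin α6, the product of the member gene Itga6, so this member was part of the sort in every skin list. The culture groups were keratinocytes from back skin without a sort label. All carried K14rtTA and came, per the study's methods, from newborn pups. The noDOX group bears the genotype of the WT-SOX9 cells and received no DOX, and the other 6 groups received 1 µg/ml of it. WT-SOX9 carried TRE-myc-Sox9. In ΔHMG-SOX9 (TRE-myc-Sox9noHMG) the domain that contacts DNA was deleted, and in ΔTA-SOX9 (TRE-myc-Sox9noTA) the domain that activates transcription. AFOS (TRE-FLAG-AFOS) is a dominant-negative partner that keeps FOS and JUN, the AP1 factors, off DNA, and SOX9+AFOS carried it beside TRE-myc-Sox9. SOX9+ARID1a carried TRE-ARID1a beside TRE-myc-Sox9, ARID1a being a component of SWI/SNF remodelling complexes. A DOX day of 3 is given in the labels for 1 sample each of WT-SOX9, ΔHMG-SOX9 and ΔTA-SOX9, and 3 days also stand in the peak names of the other 3 arms. Per the study's methods, the 3 SOX9 versions, AFOS and ARID1a were delivered by lentivirus, AFOS and ARID1a into K14rtTA cells with or without the Sox9 transgene already in them, and skin replicates pooled several mice. Every arm is set against the same noDOX list, so the arms' comparisons share it.

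Integrins are receptors of an α and a β chain that tie a cell to its matrix and signal from it. In skin, integrin α6β4 anchors basal keratinocytes through hemidesmosomes to laminin-332 of the basement membrane, α3β1 binds the same laminin at focal contacts, and α8β1 binds nephronectin at the hair follicle. The basement membrane itself is a sheet of laminin and type IV collagen networks joined by nidogens and proteoglycans, fixed to the dermis by anchoring fibrils of type VII collagen.

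The sequences below show 1 member region for each kind of change described, the highest of its kind by the authors' score in the list that defines it (D0 for regions lost in skin, W2 or later for those gained, noDOX for those closed in culture alone and WT-SOX9 for those opened there alone), with 3 more from Lama1, Itgb8 and the interval between Itga1 and Itga2 because results further on turn on them. Each is the central 200 bp of the region on the plus strand of GRCm38. Capitals mark matches, on either strand, to 4 motifs searched in that stretch. The SOX motif was ACAATAG or ACAATGG. The AP1 motif was TGACTCA. The GATA factor motif was AGATAA. The RUNX motif was TGTGGT. A match is a description of the letters and does not show binding.
Npnt, lost by W2 and not regained, chr3:132863282-132863481: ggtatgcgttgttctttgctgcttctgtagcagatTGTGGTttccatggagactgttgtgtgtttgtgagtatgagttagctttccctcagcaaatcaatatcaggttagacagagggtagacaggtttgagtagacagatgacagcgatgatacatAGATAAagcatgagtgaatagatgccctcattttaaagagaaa
Lama1, lost by W2 and not regained, chr17:67747645-67747844: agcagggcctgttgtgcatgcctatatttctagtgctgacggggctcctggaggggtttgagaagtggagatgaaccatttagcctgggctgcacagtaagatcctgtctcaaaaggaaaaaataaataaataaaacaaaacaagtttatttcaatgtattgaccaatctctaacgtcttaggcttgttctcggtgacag
Itga2, gained by W2 and kept, chr13:114838704-114838903: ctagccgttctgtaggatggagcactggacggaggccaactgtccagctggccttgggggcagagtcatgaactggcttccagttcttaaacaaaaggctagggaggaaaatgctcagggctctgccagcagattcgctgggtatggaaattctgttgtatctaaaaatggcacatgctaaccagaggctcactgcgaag
Lamc1, gained after W2, chr1:153238087-153238286: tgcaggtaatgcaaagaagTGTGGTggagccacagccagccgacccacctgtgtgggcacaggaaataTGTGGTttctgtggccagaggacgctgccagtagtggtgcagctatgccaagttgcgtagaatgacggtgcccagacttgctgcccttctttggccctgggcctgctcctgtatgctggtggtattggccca
Lamc1, opened by WT-SOX9, chr1:153273799-153273998: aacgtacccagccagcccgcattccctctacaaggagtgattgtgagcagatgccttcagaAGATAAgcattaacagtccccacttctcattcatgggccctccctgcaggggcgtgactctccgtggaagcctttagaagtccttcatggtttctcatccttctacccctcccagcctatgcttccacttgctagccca
Itgb8, opened by WT-SOX9, chr12:119164421-119164620: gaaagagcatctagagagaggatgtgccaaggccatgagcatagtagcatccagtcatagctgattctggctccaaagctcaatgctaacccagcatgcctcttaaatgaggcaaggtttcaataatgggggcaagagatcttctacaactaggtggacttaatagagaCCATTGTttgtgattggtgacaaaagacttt
Fras1, closed by WT-SOX9, chr5:96681090-96681289: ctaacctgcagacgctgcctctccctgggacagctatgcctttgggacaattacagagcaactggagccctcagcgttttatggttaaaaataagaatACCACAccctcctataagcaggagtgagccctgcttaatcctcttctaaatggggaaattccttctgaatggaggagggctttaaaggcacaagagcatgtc
Itga1 and Itga2, closed by WT-SOX9, chr13:114945771-114945970: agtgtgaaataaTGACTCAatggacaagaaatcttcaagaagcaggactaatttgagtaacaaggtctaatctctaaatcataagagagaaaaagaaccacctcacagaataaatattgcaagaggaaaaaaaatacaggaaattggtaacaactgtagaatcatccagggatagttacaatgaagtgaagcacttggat
Fras1, gained in skin by W2 and opened by WT-SOX9, chr5:96659979-96660178: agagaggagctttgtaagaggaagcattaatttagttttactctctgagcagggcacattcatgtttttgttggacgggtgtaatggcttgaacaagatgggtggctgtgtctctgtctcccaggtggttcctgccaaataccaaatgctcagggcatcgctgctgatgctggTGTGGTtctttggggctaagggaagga
Itga2, lost in skin by W2 and closed by WT-SOX9, chr13:114930212-114930411: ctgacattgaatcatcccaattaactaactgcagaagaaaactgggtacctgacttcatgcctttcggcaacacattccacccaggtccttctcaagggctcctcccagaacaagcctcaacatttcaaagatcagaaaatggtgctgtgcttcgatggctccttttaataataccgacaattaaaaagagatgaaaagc

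Of these 10 stretches, that of Itgb8 held a SOX match and that between Itga1 and Itga2 an AP1 match. The Npnt stretch held a GATA and a RUNX match, and the Lamc1 stretch opened in culture a GATA match. RUNX matches stood in the other Lamc1 stretch, 2 of them, and once in each Fras1 stretch. The Lama1 stretch and both Itga2 stretches held none of the 4 motifs. Over all skin regions, the central 200 bp held a match in 5.33% for SOX, 19.6% for AP1, 10.5% for GATA and 14.9% for RUNX, against 4.15%, 18.8%, 10.7% and 12.8% of the member regions. Over all culture regions these shares were 6.31%, 21.01%, 9.39% and 17.3%, against 5.93%, 18.4%, 8.50% and 17.0% of the members.

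The lists held 49458 to 75956 peaks, of which 289 to 380 (0.500% to 0.599%) lay in the member windows. Read depth is unknown. The score of a peak is the authors' normalised peak strength, with a lowest value of 3 and list totals of 925672 to 996710, so that scores were read as comparable between lists but not between genes as levels of expression. The weakest peak kept in a list had a −log10 q of 14.5, 9.37, 4.21, 5.74 and 10.1 in the D0, W1, W2, W6 and W12 lists. The same lowest score thus stood at a higher −log10 q at D0 than at W2. A common −log10 q minimum at the D0 value, an alternative setting below, removes peaks from the later lists only. It left 318 member regions at D0, 287 at W1 and 192 at W2, against 318, 340 and 319 without it. Peaks confined to Sox9 exons, which a transgene without introns can give, did not separate the groups by their labels. They were present at D0 (highest score 13.5), W2 (15.1), W6 (9.22) and W12 (8.84), in noDOX (3.71), SOX9+AFOS (5.11) and SOX9+ARID1a (4.14), and absent at W1 and in WT-SOX9, ΔHMG-SOX9, ΔTA-SOX9 and AFOS. All names of lists below are therefore names as labelled. Arid1a had 13 exon-confined peaks in SOX9+ARID1a (highest score 38.2), but also 8 in AFOS and 7 in SOX9+AFOS, against 0 or 1 in every other list. Promoters of 5 fibroblast markers had no peak in any list, those of 5 leukocyte markers had 1, at W12 (score 3.004), and of 5 epidermal markers 2 or 3 had a peak in every list. Of 5 hair follicle stem cell markers, 3, 2, 2, 4 and 4 had a promoter peak at D0, W1, W2, W6 and W12, and 2 or 3 in each culture list. In skin, Lgr5 (5.73 and 7.73) and Cd34 (5.90 and 3.03) had one at W6 and W12 alone, and Lhx2 at D0 alone (3.30). Sox9 and Nfatc1 had one in every skin list, Sox9 with 13.8 at D0 and 10.3 at W12, and Nfatc1 highest at D0 (11.7). Lgr5 also had one in noDOX (9.77). In culture, the highest peak within 1 kb on either side of the Sox9 start had scores of 71.9 in ΔHMG-SOX9 and 101.4 in ΔTA-SOX9, against 21.8 in noDOX and 6.49 to 22.8 in the other arms. That stretch takes in gene sequence, and whether delivered copies of Sox9 add to the score was not tested. Melanocyte marker promoters had peaks in 2 to 4 of 5 in every list, with summed scores from 94.2 at W12 to 137 at D0, and in culture from 59.997 in SOX9+ARID1a to 122 in SOX9+AFOS, against 74.5 in noDOX. Melanocytes carry CD117, against which the skin cells were sorted, and the culture cells have no sort label. Of 5 endothelial markers, 1 in each case, Kdr or Pecam1, had a promoter peak at W2, W6 and in every culture list but ΔHMG-SOX9 (3.91 to 7.75), and none had one elsewhere. What part such cells have in the results was not tested.

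In most member windows, some sites were present through the SOX9 time course while others came and went. Of the 506 skin regions, 215 were present in all 5 lists and are called static (42.5%, 95% Wilson interval 38.3 to 46.8, against 37.8% of all regions). At least 1 static region lay in the windows of 36 of the 38 members, the exceptions being Fn1, which encodes fibronectin, and Nid1, which encodes nidogen-1. Counts of windows, here and below, have no share over all coding genes beside them and describe the members alone. Wilson intervals here cover counting error only, and regions are not replicates of a condition. A further 37 regions in 25 windows were present at D0 and absent at W2, W6 and W12, called lost by W2 (7.31%, interval 5.35 to 9.92, against 5.59% of all regions and 5.25% of regions near coding genes, the latter outside the interval). In 22 windows, 34 regions first had a peak at W2 and still had one at W6 and W12, called gained by W2 and kept (6.72%, against 7.99%). Another 28 regions in 22 windows appeared at W6 and stayed at W12 (5.53%, against 6.89%). These class counts depended on the setting: 22 regions were gained by W2 and kept with a score of at least 5 and 11 with a common −log10 q minimum in all 5 lists, while 56 were lost by W2 with lists of equal size and 62 with the common minimum. With the common minimum the share lost by W2 was 0.113 percentage points above that of all regions, and with lists of equal size 2.48 points above. Those gained after W2 numbered 12 with lists of equal size and 16 with a score of at least 5. The excess of static regions depended on it too. Its difference from all regions was 4.71 percentage points, but 1.64 against regions near coding genes, of which 40.9% were static, a share inside the interval of the members. With the common minimum it was −0.866.

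**Figure D1:**
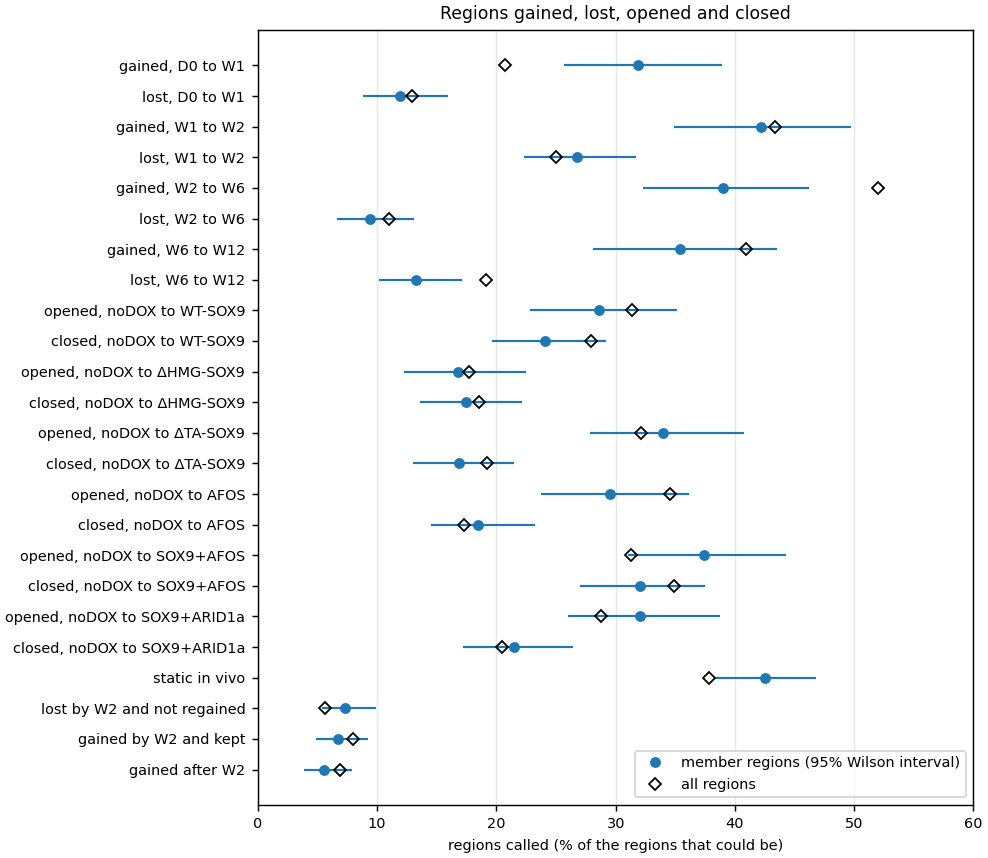
Share of regions called in each comparison, in percent of the regions that could be called, for the member windows (points with 95% Wilson intervals, counting error only) and for all regions (diamonds). The member share lay above the diamond for regions gained from D0 to W1 (31.9% against 20.7%) and below it for regions gained from W2 to W6 (39.0% against 52.0%), and most other intervals held the diamond.

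Of the shares gained and lost between successive lists, the Wilson interval left out the share of all regions for those gained from D0 to W1, gained from W2 to W6 and lost from W6 to W12, and held it for the others. From D0 to W1, 60 of the 188 member regions absent at D0 were gained (31.9%, 95% Wilson interval 25.7 to 38.9, against 20.7% of all regions), and 38 of 318 were lost (11.9%, against 12.9%), or 62 with the common minimum (a difference from all regions of −1.58 points). The share gained was 8.75 to 13.3 points above that of all regions under each of the 8 alternative settings run, though the count was 31 with the common −log10 q minimum. From W1 to W2, 70 of 166 were gained (42.2%, against 43.4%; 26 with the common minimum) and 91 of 340 were lost (26.8%, against 25%). From W2 to W6, 73 of 187 were gained (39.0%, interval 32.3 to 46.2, against 52.0%), or 44 with lists of equal size, and 30 of 319 were lost (9.40%, against 11%), and the lower share gained was not kept under the common −log10 q minimum, where it was 0.827 points above. From W6 to W12, 51 of 144 were gained (35.4%, against 40.9%) and 48 of 362 were lost (13.3%, interval 10.1 to 17.1, against 19.1%). With that minimum 90 were gained (a difference from all regions of −1.26 points) and 21 lost (0.714 points above).

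Of the 506 regions, 36 were present at W1 and in no other skin list (7.11%, against 4.68% of all regions), so 36 of the 60 regions gained at W1 were seen there alone (60%, against 52.2% of all regions gained at W1). A direct comparison of D0 with W2, added after seeing the data, had 74 of 188 member regions gained (39.4%, against 37.8%) and 73 of 318 lost (23.0%, against 19.7%). Without W1 in the definitions, 226 of 470 regions were static (48.1%, against 43.1%), 44 opened by W2 and stayed (9.36%, against 9.71%), and 30 opened after W2 (6.38%, against 7.95%).

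**Figure D2:**
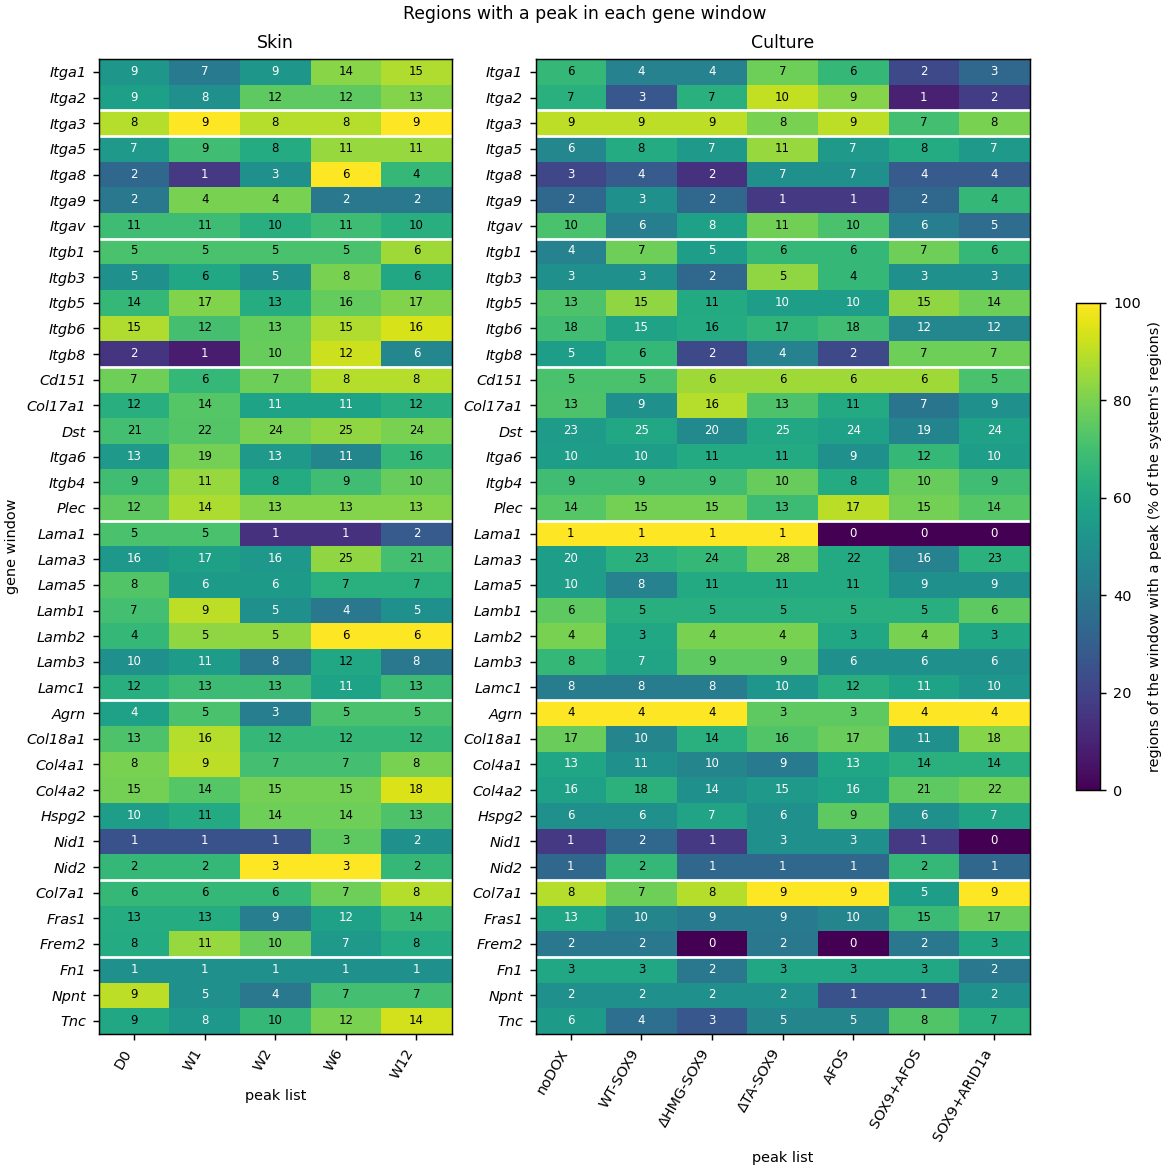
Number of regions with a peak in each of the 38 gene windows (rows, grouped by role and separated by white lines) in the 5 skin lists and 7 culture lists (columns), coloured by the percent of the window's regions in that system. Itgb8 went from 2 regions at D0 to 10 at W2, Lama1 from 5 to 1, and Itga2 held 7 regions in noDOX, 3 in WT-SOX9 and 10 in ΔTA-SOX9.

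The collagen-binding chains Itga1 and Itga2, which pair with integrin β1, lie next to each other on chromosome 13, and sites in both genes appeared in skin by W2. Of their 28 skin regions, 6 were gained by W2 and kept (21.4%, against 7.99% of all regions), 4 of them in Itga2. The Itga2 window had 9, 8, 12, 12 and 13 regions at D0, W1, W2, W6 and W12. The intron region chr13:114838360-114839247, whose centre is printed above, had no peak at D0 or W1 and then scores of 25.1, 15.9 and 7.07. The Itga1 window had 9, 7, 9, 14 and 15 regions at D0, W1, W2, W6 and W12. Its intron region chr13:114988296-114988904 likewise had none at first and then 15.3, 21.5 and 12.2. Another Itga1 intron region, chr13:115006108-115006811, was present at W12 alone (score 15.7).

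In culture the Itga2 window had fewest regions in the arms with full-length SOX9. Itga1 had 6 regions in noDOX, 4 each in WT-SOX9 and ΔHMG-SOX9, 7 in ΔTA-SOX9, 6 in AFOS, 2 in SOX9+AFOS and 3 in SOX9+ARID1a. Itga2 had 7 regions in noDOX, 3 in WT-SOX9, 7 in ΔHMG-SOX9, 10 in ΔTA-SOX9, 9 in AFOS, 1 in SOX9+AFOS and 2 in SOX9+ARID1a. Of 10 regions of both windows present in noDOX, 5 were absent in WT-SOX9 (against 27.9% of all regions), 3 in ΔHMG-SOX9 (18.5%), 1 in ΔTA-SOX9 (19.2%), 2 in AFOS (17.3%), 7 in SOX9+AFOS (34.9%) and 6 in SOX9+ARID1a (20.5%). The region between both genes with the AP1 match, chr13:114945281-114946461, had scores of 15.3 in noDOX, 23.8 in ΔHMG-SOX9, 40.2 in ΔTA-SOX9 and 23.7 in AFOS and no peak in WT-SOX9, SOX9+AFOS or SOX9+ARID1a. An Itga2 intron region with an AP1 match, chr13:114860046-114860692, was present in the same 4 lists (10.8, 9.48, 19.9 and 24.9) and absent in the same 3. In skin the interval region behaved otherwise: a narrower peak there had 9.72 at D0, none at W1 and 5.15, 15.5 and 18.6 later, and its own central 200 bp held no AP1 match. The Itga2 promoter had scores of 15.9 to 26.8 in skin and of 3.83 to 18.02 in 5 culture lists, and no peak in SOX9+AFOS or SOX9+ARID1a.

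Itga3, the α chain of α3β1, changed little in number of regions. Of its 9 skin regions 8 were static (against 37.8% of all regions). Each culture list held 7 to 9 of its 10 culture regions, and 6 were present in all 7 lists (against 25.3%). Its gene start had a peak within 1 kb in all 12 lists, with scores of 12.3 to 20.5 in skin and 15.1 to 27.8 in culture. Over all annotated starts its highest score was 34.3 to 72.1 in skin and 45.3 to 117 in culture.

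Among α chains that bind fibronectin, vitronectin, nephronectin or tenascin, Itga8 gained 2 strong regions. Itga8, whose product pairs with β1 to bind nephronectin, had 2, 1, 3, 6 and 4 regions over the series. Its intron region chr2:12255612-12256275 had scores of 19.98, 20.7 and 15.3 from W2 on and no peak before. The second, chr2:12259212-12259720, had 7.95, 18.04 and 17.2 and was also present in SOX9+ARID1a (5.78), WT-SOX9 (5.39) and SOX9+AFOS (3.09) and in none of the other culture lists. Culture regions of Itga8 numbered 7 in ΔTA-SOX9 and 7 in AFOS against 3 in noDOX. Itgav, the vitronectin receptor chain, changed little in number in skin (10 or 11 regions in every list) and had 10 in noDOX, 6 in WT-SOX9 and 5 in SOX9+ARID1a. Itga5, the fibronectin receptor chain, had 7 regions at D0 and 11 at W6 and W12, and 11 in ΔTA-SOX9 against 6 in noDOX. Itga9, a tenascin receptor chain, had 2 to 4 regions in each skin list, and its promoter scores were 4.13, 3.19, 3.54, 14.1 and 4.24 over the series, high at W6 alone.

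Itgb8, whose product pairs with αv and activates TGFβ, had the largest rise in region number between D0 and W2 of the 38 windows in skin. It held 2, 1, 10, 12 and 6 regions over the series, all but 1 of 13 within the gene body (chr12:119158022-119238802, minus strand). In its introns, 3 regions were gained by W2 and kept, the strongest being chr12:119215169-119215649 with scores of 10.997, 24.1 and 13.4. A further one, chr12:119227708-119228386, had 4.30 at D0, none at W1 and 50.9, 34.7 and 16.8 later. The promoter had scores of 23.2, 12.8, 76.4, 52.1 and 27.3 at D0, W1, W2, W6 and W12, with W2 the highest and W1 the lowest, as for that intron region.

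In culture the Itgb8 window had 5 regions in noDOX, 6 in WT-SOX9, 2 in ΔHMG-SOX9, 4 in ΔTA-SOX9, 2 in AFOS, 7 in SOX9+AFOS and 7 in SOX9+ARID1a. The intron region with the SOX match printed above, chr12:119164134-119164907, was absent in noDOX, ΔHMG-SOX9 and AFOS and had scores of 17.6 in WT-SOX9, 3.23 in ΔTA-SOX9, 7.89 in SOX9+AFOS and 5.39 in SOX9+ARID1a. The same place was open in skin at W2 (3.11) and W6 (7.25) alone. The promoter score was 17.9 in noDOX, 39.2 in WT-SOX9, 10.8 in ΔHMG-SOX9, 8.02 in ΔTA-SOX9, 4.39 in SOX9+AFOS and 3.30 in SOX9+ARID1a, with no peak in AFOS. Promoter and intron scores were not in the same order, since the intron region chr12:119227667-119228489 had its highest culture scores in SOX9+AFOS (48.6), SOX9+ARID1a (31.7) and WT-SOX9 (28.6), against 11.5 in noDOX.

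**Figure D3:**
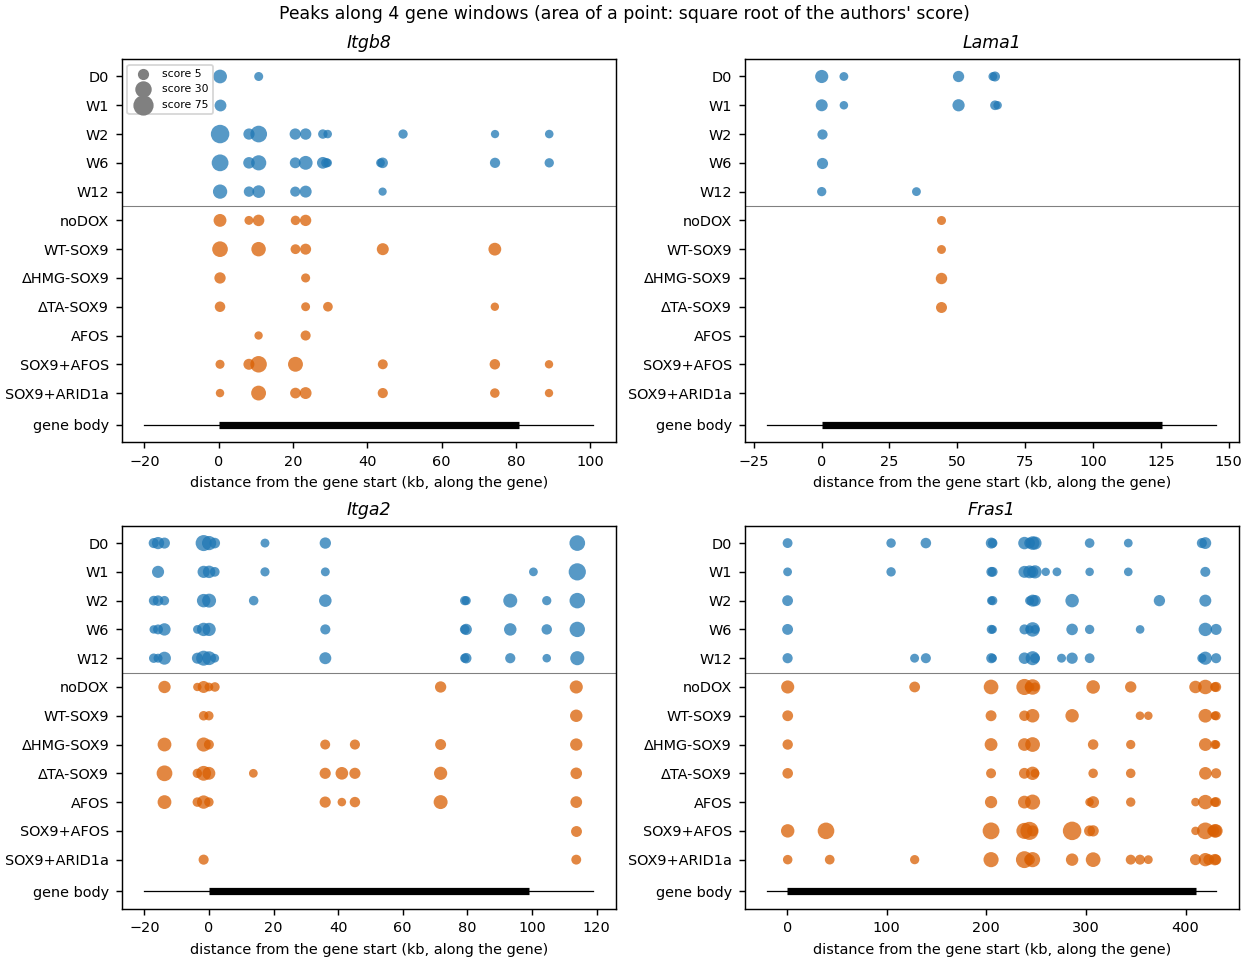
Peaks in the windows of Itgb8, Lama1, Itga2 and Fras1 by distance from the gene start in kb, along the direction of the gene, in each of the 12 lists (skin in blue, culture in orange). Point area follows the square root of the authors' score, and the bar is the gene body. Itgb8 gained intron peaks from W2, Lama1 held its promoter peak alone at W2 and W6, and Itga2 lacked most intron peaks in the 3 arms with full-length SOX9.

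The other β chains were steadier. Itgb1, the common partner of most α chains in keratinocytes, had 5 or 6 regions in each skin list, 4 in noDOX and 7 in WT-SOX9, and its promoter had a peak in all 12 lists (19.5 to 64.7). Itgb5 and Itgb6, both partners of αv, had 13 to 17 and 12 to 16 regions in skin. Itgb6 had 18 regions in noDOX, 15 in WT-SOX9, 18 in AFOS, and 12 each in SOX9+AFOS and SOX9+ARID1a. Its intron region chr2:60710990-60712134 had a score of 45.3 in noDOX, 8.92 in WT-SOX9, 56.5 in ΔHMG-SOX9, 95.04 in ΔTA-SOX9, 23.9 in AFOS, 7.65 in SOX9+AFOS and 20.1 in SOX9+ARID1a. Itgb3, another partner of αv, had 5 to 8 regions in skin and 2 to 5 in culture, and its promoter had a peak in every skin list (3.97 to 7.89) and in no culture list.

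The hemidesmosome genes had 59 static regions of 111 (53.2%, against 37.8% of all regions), and gained 17 of 37 from D0 to W1 (45.9%, against 20.7%), the highest shares among the role groups apart from Itga3. They are Itga6 and Itgb4, the α6β4 receptor, Col17a1, the transmembrane collagen XVII, Dst and Plec, which encode the plakins BPAG1 and plectin, and Cd151, a tetraspanin bound to α6. Itga6 had 13, 19, 13, 11 and 16 regions over the series. All 6 of its regions gained at W1 were intronic, with scores of 3.29 to 9.12, and 5 of them were present at W1 alone. Its peak at an annotated transcript start inside the gene, chr2:71786592-71787610, was static with scores of 10.5 to 21.1. The gene start itself had no peak within 1 kb in any list.

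Col17a1 had 12, 14, 11, 11 and 12 regions over the skin series and, in culture, 13 in noDOX, 9 in WT-SOX9, 16 in ΔHMG-SOX9, 13 in ΔTA-SOX9, 11 in AFOS, 7 in SOX9+AFOS and 9 in SOX9+ARID1a. Its upstream region chr19:47710146-47710944 was present in all 7 culture lists, with scores of 21.6 in WT-SOX9 and 4.20 in SOX9+AFOS against 38.001 to 48.6 in the other 5. Dst had the most regions of any member, 48 over all lists, with 21 to 25 in each skin list and 19 to 25 in each culture list. Plec had 12 to 14 regions in skin and 13 to 17 in culture, and Itgb4 8 to 11 and 8 to 10. Cd151, in the shortest window, had 6 to 8 regions in skin and 5 or 6 in culture, and its promoter was open in all 12 lists (23.0 to 59.2).

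The laminin genes had the largest share of regions lost by W2 of the role groups, 13 of 103 (12.6%, against 5.59% of all regions), and 27 of their 66 regions present at W1 were absent at W2 (40.9%, against 25%). Lama1, the α chain of laminin-111, accounted for 4 of the 13. It had 5, 5, 1, 1 and 2 regions over the series. The intron region chr17:67747056-67748434, whose centre is printed above, had scores of 10.6 at D0 and 14.6 at W1 and none later. The Lama1 promoter stayed open in skin with scores of 19.6, 13.5, 7.16, 10.2 and 4.85, and had no peak in any culture list. A single intron region was open in culture, in noDOX, WT-SOX9, ΔHMG-SOX9 and ΔTA-SOX9 (4.10 to 11.1).

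Lamb1, the β chain that pairs with Lama1, lost 2 intron regions by W2. One of them, chr12:31284013-31284572, had 14.1 at D0 and 14.5 at W1, and the other, chr12:31306142-31306796, with a SOX match, had 10.4 and 12.9. Lamb1 held 7 regions at D0, 9 at W1 and 4 or 5 later. Lamc1, the γ chain of the same laminin, had 11 to 13 regions in every skin list, with losses and gains side by side. The intron region chr1:153252690-153253232 (11.1 at D0, 9.48 at W1) was lost, and chr1:153237904-153238470, printed above, appeared at W6 (17.5) and W12 (5.07). In culture, the Lamc1 intron region chr1:153273569-153274229 had the highest score of all 58 member regions opened by WT-SOX9, 44.6, with 31.4 in SOX9+AFOS and 17.9 in SOX9+ARID1a and no peak in the other 4 lists. In skin a peak at that place was already present at D0 (5.54), and again at W2 (4.02) and W12 (4.76).

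The laminin-332 chains Lama3 and Lamb3, with Lama5, the α chain of laminin-511, and Lamb2, the β2 chain, made up the remaining laminin loci. Lama3 had 16, 17, 16, 25 and 21 regions in skin, with 3 each lost by W2, gained by W2 and kept, and gained after W2. Its culture count was 20 in noDOX and highest in ΔTA-SOX9 (28). Its gene start had a peak within 1 kb in all 12 lists (6.24 to 28.6). Over all annotated starts its highest score was larger, 56.2 to 90.4 in skin and 101.6 to 143.1 in culture. Lamb3 had 8 to 12 regions in skin and 6 to 9 in culture. Lama5 had 8 regions at D0 and 6 or 7 later, and Lamb2, the shortest of these windows, 4 to 6.

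In the group of the collagen IV network and its proteoglycans, Col18a1, which encodes the proteoglycan collagen XVIII, had 17 regions in noDOX, 10 in WT-SOX9, 14 in ΔHMG-SOX9, 16 in ΔTA-SOX9, 17 in AFOS, 11 in SOX9+AFOS and 18 in SOX9+ARID1a. Its intron region chr10:77084180-77085051 had a score of 19.1 in noDOX, 3.97 in WT-SOX9, 21.9 in ΔHMG-SOX9 and 24.3 in SOX9+ARID1a, and no peak in SOX9+AFOS. In skin Col18a1 had 12 or 13 regions in 4 lists and 16 at W1. Col4a1 and Col4a2, the chains of collagen IV, share 1 promoter region, with scores of 21.6, 14.5 and 10.3 from D0 to W2, then none, and a score of 10.5 in the W12 list. The Col4a2 window had 16 regions in noDOX, 18 in WT-SOX9, 21 in SOX9+AFOS and 22 in SOX9+ARID1a, against 14 to 16 in the other 3 arms, and Col4a1 had 7 to 9 in skin and 9 to 14 in culture.

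Hspg2, which encodes perlecan, had 10 regions at D0, 11 at W1 and 13 or 14 later, 2 of them gained by W2 and kept. Nid1 had 1 region at D0, W1 and W2, 3 at W6 and 2 at W12, the strongest being chr13:13528939-13529707 downstream of the gene (scores of 6.63, 24.1 and 11.8 from W2 on). Nid2 had 2 or 3 regions, with a promoter score of 3.14 at D0 and 11.9 at W2. Agrn, which encodes agrin, had 3 to 5 regions in skin and 3 or 4 in culture.

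Of the anchoring fibril and Fraser complex genes, Fras1, whose product links the epidermis to the dermis, differed widely between culture arms. It had 13 regions in noDOX, 10 in WT-SOX9, 9 each in ΔHMG-SOX9 and ΔTA-SOX9, 10 in AFOS, 15 in SOX9+AFOS and 17 in SOX9+ARID1a. The intron region chr5:96680904-96681476, printed above, was the strongest of the 73 closed by WT-SOX9. It had 22.1 in noDOX, 7.93 in ΔHMG-SOX9, 5.39 in ΔTA-SOX9, 12.9 in AFOS, 10.5 in SOX9+AFOS and 30.6 in SOX9+ARID1a. In the same gene, the region chr5:96659599-96660544, also printed above, was absent in noDOX and present in SOX9+AFOS (76.8), WT-SOX9 (21.1) and SOX9+ARID1a (15.6) alone. That place was also gained in skin, with scores of 21.4, 11.7 and 10.6 from W2 on and no peak before. Frem2, a partner of Fras1, had 8, 11, 10, 7 and 8 regions over the series and 0 to 3 in culture, with promoter scores of 63.3, 41.4, 46.3, 22.9 and 30.3 in skin. Col7a1, the anchoring fibril collagen, had 6 to 8 regions in skin, and 8 in noDOX, 7 in WT-SOX9 and 5 in SOX9+AFOS.

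The matrix ligands differed among themselves. Npnt, which encodes nephronectin, had 9, 5, 4, 7 and 7 regions over the series. The region downstream of the gene printed above, chr3:132863115-132863648, had 16.0 at D0 and 5.10 at W1 and no peak later. It ended 12 bp before a static region, with scores of 17.1 to 35.3, so that a narrower open stretch and a lost site cannot be told apart there. Of the 37 member regions lost by W2, 2 lay within 200 bp of another region (5.41%, against 4.55% of all regions so lost). Tnc, which encodes tenascin-C, went the other way, with 9, 8, 10, 12 and 14 regions over the series. Its intron region chr4:64034588-64035033, with an AP1 match, had 14.6, 15.8 and 5.09 from W2 on and no peak before. In culture a Tnc intron region, chr4:63977362-63978319, had 5.90 in noDOX, 3.02 in AFOS, 30.6 in SOX9+AFOS and 13.2 in SOX9+ARID1a and no peak in WT-SOX9, ΔHMG-SOX9 or ΔTA-SOX9. Fn1 had 1 region in each skin list and 2 or 3 in each culture list.

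Promoter peaks were called for more members in skin than in culture, as they were for all coding genes. A peak lay within 1 kb of the gene start for 32 to 35 of 38 members in each skin list and for 22 to 29 in each culture list. These shares were 84.2% to 92.1% and 57.9% to 76.3%, against 56.1% to 58.8% and 47.1% to 53.0% of all coding genes. In all 12 lists, 15 promoters had a peak (39.5%, against 43.6%). Itga9, Itgb3, Lama1 and Tnc had a promoter peak in all 5 skin lists and in no culture list. Itga6, Itgb6 and Nid1 had none in any list. When any annotated transcript start was taken, which was added after seeing the data, Itga6 and Itgb6 had a peak in all 12 lists and Nid1 in WT-SOX9 alone, and 20 members had one in all 12.

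**Figure D4:**
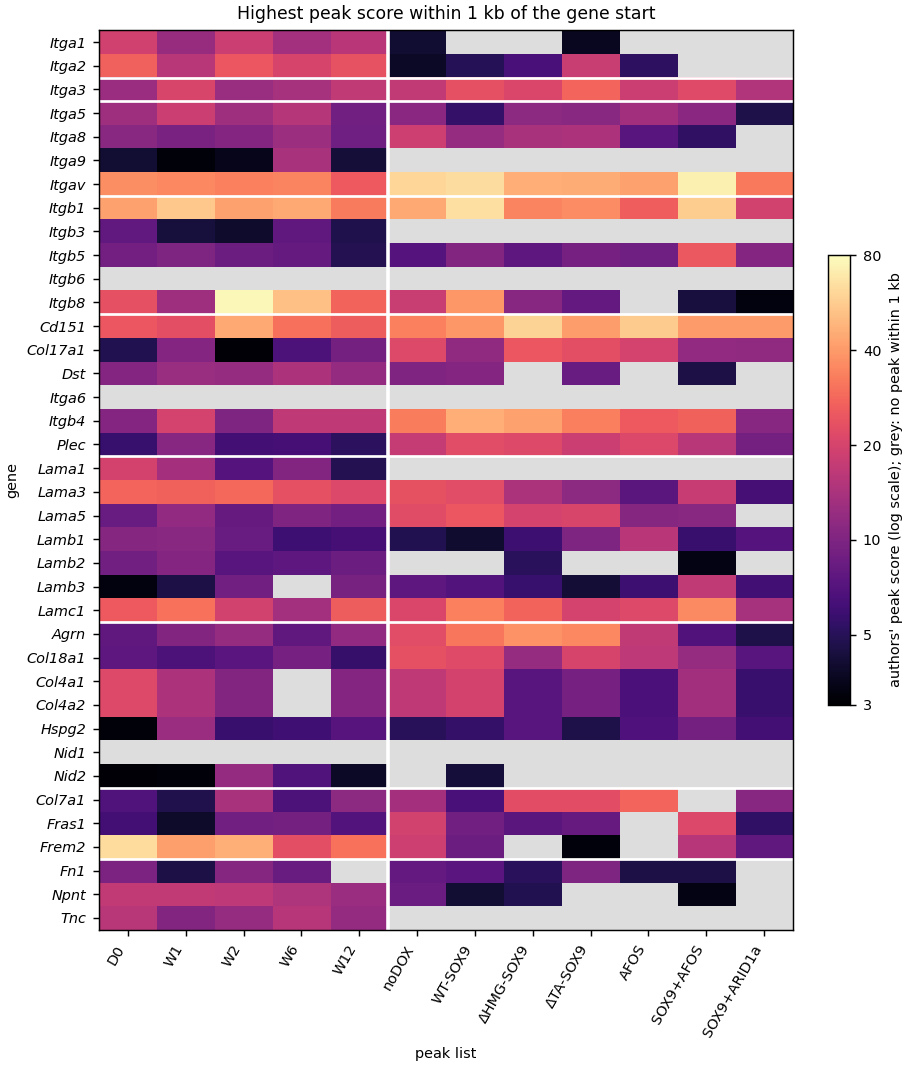
Highest authors' peak score within 1 kb of the gene start (colour, log scale) for the 38 members (rows, grouped by role) in the 12 lists (columns, skin left of the white line), with grey where no peak was called. Itgb8 reached 76.4 at W2, and Itga9, Itgb3, Lama1 and Tnc are grey in all 7 culture lists.

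Promoter scores were compared at the gene start, where both lists had a peak. The changes named for Lamb3 and Dst held there alone. Over all annotated transcript starts, the highest Lamb3 score was 29.8 at D0, 37.6 at W2 and 23.8 at W12. It was 45.8 in noDOX and 71.0 in SOX9+AFOS, and that of Dst 56.5 and 59.9. Lama3 was at least 2-fold lower at its gene start in ΔTA-SOX9, AFOS and SOX9+ARID1a. Over all starts it had 102, 124 and 129 in them, against 133 in noDOX. From D0 to W2, Col7a1, Itgb8, Lamb3 and Nid2 were at least 2-fold higher (4 of 35 members, against 2.18% of all promoters), and Col4a1, Col4a2 and Lama1 at least 2-fold lower (3 of 35, against 2.17%), of which Col4a1 and Col4a2 share a promoter region. From D0 to W6, Itga9, Itgb8 and Nid2 were at least 2-fold higher (3 of 32, against 3.07%) and Frem2 lower (1 of 32, against 3.37%). From noDOX to WT-SOX9, Itgb8 alone was at least 2-fold higher (1 of 28, against 2.87%), and Col7a1, Fras1, Frem2 and Npnt were lower (4 of 28, against 2.24%), while the median promoter of all genes was 0.24 higher on the log2 scale. From D0 to W12, Hspg2 and Lamb3 were at least 2-fold higher (2 of 34, against 1.37%) and Col4a1, Col4a2, Frem2 and Lama1 lower (4 of 34, against 3.19%). From D0 to W1, 2 of 35 were higher (against 11.8%) and 1 lower (against 1.59%). ΔHMG-SOX9 had 0 of 26 higher (against 1.54%) and 3 lower (against 2.20%), and ΔTA-SOX9 2 of 28 higher (against 1.44%) and 4 lower (against 3.39%). AFOS had 2 of 23 higher (against 2.27%) and 5 lower (against 15.2%). In SOX9+AFOS, Itgb5 and Lamb3 were higher (2 of 26, against 6.07%) and Agrn, Dst, Itga8, Itgb8, Lama5 and Npnt lower (6 of 26, against 6.36%), with a median log2 difference of −0.26 over the members and 0.04 over all genes. In SOX9+ARID1a no member was at least 2-fold higher (0 of 22, against 0.834%) and 11 of 22 were at least 2-fold lower, against 35% of all promoters. Promoter scores of the SOX9+ARID1a list were lower as a whole, with a median log2 difference of −0.74 over all genes and −1.06 over the members.

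Over all 38 windows, the shares of member regions opened and closed by WT-SOX9 in culture were near those of all regions. Of 203 regions absent in noDOX, 58 were opened (28.6%, against 31.4% of all regions), in 24 windows, and of 303 present in noDOX, 73 were closed (24.1%, against 27.9%), in 29 windows. ΔHMG-SOX9 opened 34 (16.7%, against 17.7%) and closed 53 (17.5%, against 18.5%). ΔTA-SOX9 opened 69 (34.0%, against 32.1%) and closed 51 (16.8%, against 19.2%). The Wilson interval of each of these shares held the share of all regions.

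The AFOS and ARID1a arms were compared with the same noDOX list. AFOS opened 60 (29.6%, against 34.6%), or 35 with lists of equal size, and closed 56 (18.5%, against 17.3%). SOX9+AFOS opened 76 (37.4%, against 31.3%) and closed 97 (32.0%, against 34.9%), the largest counts of the 6 arms. SOX9+ARID1a opened 65 (32.0%, against 28.8%) and closed 65 (21.5%, against 20.5%). Peaks of these 3 lists are named as called from fragments, unlike the other culture lists, and how far this bears on their values was not tested.

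Set directly against WT-SOX9, the 3 arms examined lacked a smaller share of the member regions than of all regions, and less so when set against regions near coding genes. From WT-SOX9 to ΔHMG-SOX9, 69 of 288 were closed (24.0%, 95% Wilson interval 19.4 to 29.2, against 30.8%) and 65 of 218 opened (29.8%, against 32.6%). SOX9+AFOS lacked 73 of the 288 (25.3%, interval 20.7 to 30.7, against 32.0%) and had 67 of the 218 (30.7%, against 28.5%). SOX9+ARID1a lacked 50 (17.4%, interval 13.4 to 22.2, against 25%) and had 65 (29.8%, against 34.6%). Of regions near coding genes, 27.6% were lacking in ΔHMG-SOX9 and 28.6% in SOX9+AFOS, both inside the members' intervals, and 23.2% in SOX9+ARID1a, outside it. For regions opened in SOX9+ARID1a that background was 36.5%, outside the members' interval of 24.1 to 36.2. In all, 151 of 506 member regions were present in all 7 culture lists (29.8%, against 25.3%).

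By role, and among groups with over 20 such regions, the laminin genes had the smallest share closed in both mutant arms, with 4 of 57 regions present in noDOX closed by ΔHMG-SOX9 (7.02%, against 18.5% of all regions) and 3 by ΔTA-SOX9 (5.26%, against 19.2%). WT-SOX9 closed 13 of them (22.8%, against 27.9%) and SOX9+AFOS 25 (43.9%, against 34.9%). Regions opened by WT-SOX9 were most frequent for the β chains, 12 of 25 (48.0%, against 31.4%). In the anchoring fibril and Fraser group, 8 of 23 were closed by WT-SOX9 (34.8%, against 27.9%) and 1 by SOX9+ARID1a (4.35%, against 20.5%). These are counts of few regions in single lists, and differences between roles were not tested.

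AP1 matches were less frequent in some classes of changed member regions than in the same classes over all regions, and more frequent in those opened by SOX9+AFOS, with no test of the difference. Of the 58 member regions opened by WT-SOX9, 13 had a SOX match (22.4%, against 16.8% of all regions so opened) and 3 an AP1 match (5.17%, against 11.8%). Of the 73 closed, 2 had a SOX match (2.74%, against 3.50%) and 17 an AP1 match (23.3%, against 29.9%). Of the 69 opened by ΔTA-SOX9, 11 had an AP1 match (15.9%, against 32.7%), and of the 34 opened by ΔHMG-SOX9, 4 (11.8%, against 24.8%). Of the 97 closed by SOX9+AFOS, 33 had an AP1 match (34.0%, against 35.7%), and of the 60 opened by AFOS, 18 (30.0% of members and of all). Of the 76 opened by SOX9+AFOS, 5 had one (6.58%, against 4.32%). In skin, a SOX match stood in 4 of the 34 regions that opened by W2 and stayed (11.8%, against 12.2%). Of the 28 gained after W2, 0 had one (against 7.81%) and 10 had an AP1 match (35.7%, against 39.9%). Of the 37 lost by W2, 5 had a GATA match (13.5%, against 23.1%).

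Skin and culture changes, which share no list, met at few member regions. Of 257 regions absent both at D0 and in noDOX, 45 were gained by W2 in skin, 51 were opened by WT-SOX9, and 9 did both (3.50%, against 3.98% of all regions). The 9 lay in Itgb8, Itga1, Itgb5, Lama3, Itga8, Fras1, Itga9 and, for 2 of them, Col4a2, and the Fras1 region described above scored highest. Of 192 present both at D0 and in noDOX, 13 were lost in skin and 23 closed in WT-SOX9, with 4 in both sets (2.08%, against 3.54%). All 4 had a peak again at W12. They lay in Itga2, Itgb6, Itga6 and the Col7a1 window, there in an intron of the neighbour Uqcrc1. The Itga2 region, chr13:114930124-114930499, had 8.40 at D0, 5.81 at W1 and 5.42 in noDOX, and 3.83 at W12.

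Across both systems, 117 of the 677 regions were present in all 12 lists (17.3%, against 14.1% of all regions), and 313 were present in both systems (46.2%, against 43.0%). In all 5 skin lists and no culture list there were 36 (5.32%, against 4.41%), and in all 7 culture lists and no skin list 8 (1.18%, against 0.982%). Regions seen in skin alone numbered 172 (25.4%, against 27.9%), and in culture alone 192 (28.4%, against 29.1%).

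Other genes of the pathway, from lists set beside the members, differed among themselves. The 6 other integrins had 47 skin regions, of which 21 were static (44.7%, against 37.8% of all regions), 3 lost by W2 (6.38%, against 5.59%), 3 gained by W2 and kept (6.38%, against 7.99%) and 6 gained after W2 (12.8%, against 6.89%). The 14 other basement membrane genes had 142, of which 49 were static (34.5%), 11 lost by W2 (7.75%), 16 gained by W2 and kept (11.3%) and 6 gained after W2 (4.23%). The 13 genes of the adhesion machinery that couples integrins to actin had 171, of which 69 were static (40.4%), 6 lost by W2 (3.51%), 12 gained by W2 and kept (7.02%) and 8 gained after W2 (4.68%). From D0 to W1, 22.2%, 15.2% and 27.8% of the regions that could be were gained in these lists, against 31.9% for the members and 20.7% for all regions, and the difference between lists was not tested.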

How the data were processed

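ATAC-seq peaks of 24 samples were used as the 12 lists the authors deposited. The study's methods name PEPATAC for alignment to GRCm38, then MACS2 peak calling by the authors on merged replicates, depth normalisation and removal of peaks under 3. The submitters' processing notes name Bowtie2 2.2.9, Picard 2.3.0, SAMtools 1.9, MACS2 2.1.1 and deepTools 2.5.4. The score in all lists, and the fold enrichment and −log10 q-value in the skin lists, are values deposited by the authors. List totals were taken to show a common scale. These alternatives were added after seeing the data: W1 not used in the classes, D0 against W2 directly, and any annotated transcript start. Read depth is unknown.

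Peaks overlapping by at least 1 bp were merged into regions, separately for skin, culture and all lists (Python 3.11.15, pandas 2.3.3). A region was present in a list with a peak in it. Genes and transcript starts came from GENCODE M21, sequences from the GRCm38 genome of RefSeq read with pysam 0.24.0, and Wilson intervals from statsmodels 0.14.6. All 37 RefSeq promoter sequences matched for 28 members equalled the genome at their coordinates. Named regions were the 5 of each class with the highest score, and others were named after their values were seen. Members, gene lists and classes were chosen with earlier results of these data known. The counting was tested on simulated data. Alternatives were a score of at least 5, lists of equal size, a 25% cover, 1 union of 12 lists, a common −log10 q minimum, flanks of 0 or 50 kb and a background near coding genes. With 1 list a group, no test was run.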

Additional observations from a re-analysis of the deposited data

How the results depend on the processing

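No paired analysis was possible because the replicates were merged before peaks were called, and no replicate could be left out. A 25% cover and 1 union of 12 lists moved none of the counts of member regions beyond 1.5 times. Of 30 differences between the member share and that of all regions, 2 changed sign with no flank (0.809 points for regions opened by WT-SOX9, 1.92 for those closed by ΔHMG-SOX9) and 3 against regions near coding genes (0.0685 for those lost from D0 to W1, 1.30 for those closed by ΔHMG-SOX9, 0.847 for those closed by SOX9+AFOS). A score of at least 5 changed the sign of 9, lists of equal size 5, and 50 kb flanks, 25% cover and the union 0. In none of these cases had the member interval left out the share of all regions. With a common −log10 q minimum of 14.5 in skin, member regions gained from D0 to W1 numbered 31 (member share minus that of all regions 11.6 points), lost 62 (−1.58), gained from W1 to W2 26 (−5.93), gained from W6 to W12 90 (−1.26), lost from W6 to W12 21, static 140, lost by W2 62 (0.113) and gained by W2 and kept 11 (−1.15). Under it that difference was 0.827 points for regions gained from W2 to W6, 4.35 for those lost from W2 to W6, 0.714 for those lost from W6 to W12 and −0.866 for static regions. With lists of equal size, 44 were gained from W2 to W6 (−8.60 points), 35 opened by AFOS (−6.69), 56 lost by W2 (2.48) and 12 gained after W2 (−1.46). With a score of at least 5, 22 were gained by W2 and kept (−2.29) and 16 gained after W2 (−1.45), and the share differences were 3.14 points for regions lost from D0 to W1 and 2.98 for those closed by ΔTA-SOX9. The cause of these changes was not tested.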

Other observations

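Of the 36 member regions with a peak in all 5 skin lists and no culture list, 4 each lay in Dst, Frem2, Hspg2 and Tnc. Of the 8 with a peak in all 7 culture lists and no skin list, 3 lay in the windows of Col4a1 and Col4a2 and 1 each in those of Col7a1, Fn1, Itgb6, Lama3 and Plec. Animal age, sort, culture and, for W12, grafting move with this split and cannot be told apart.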
